A study of Homo sapiens with 48 samples.

Results

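The genes described here are 10 members of the EGR and IER immediate early system: the zinc finger transcription factors EGR1, EGR2, EGR3 and EGR4, the immediate early response genes IER2, IER3 and IER5, the serum response factor SRF, and the EGR corepressors NAB1 and NAB2. They were taken by name, with no measured value in the rule, from 58870 genes in the count tables. The data are RNA-seq of 3 established uveal melanoma cell lines, 92-1, MEL202 and MP41, all labelled wild type. Cells of each line received FHT-1015, an inhibitor of both SMARCA4 and SMARCA2 (the alternative ATPases of the BAF chromatin remodelling complex), or the vehicle DMSO, for 4 h or 24 h. Separate 92-1 cells received IDE196, an inhibitor of protein kinase C, or their own DMSO, for the same times. This gave 16 groups of 3 samples labelled as biological replicates, 48 libraries in all, and doses were not given in the sources used here. Each line is a single established line grown without the other cells of a tumour, and line and experiment cannot be told apart in comparisons between lines.

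Immediate early genes are transcribed within minutes of a growth signal without new protein synthesis, and their RNAs are short-lived, so that their level follows the activity of the pathway that drives them. SRF binds the CArG box and, with ternary complex factors of the ETS family that are phosphorylated by ERK, switches on EGR1 and its relatives; the EGR proteins bind GC-rich sites, activate NAB2 among other genes, and are held in check by NAB1 and NAB2. Most uveal melanomas carry an activating mutation in a Gq family protein, which signals through protein kinase C to the MAP kinase pathway.

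Sequence upstream of the genes was taken from RefSeq (GRCh38.p14): 250 bases before each annotated start, found for 8 of the 10 genes at 13 starts. Both strands were searched for the CArG box bound by SRF, the EGR site GCGNGGGCG, the cyclic AMP response element half-site TGACG and the ETS site CCGGAA. Of 35116 such windows over all genes, 1.16% held a CArG box, 8.41% an EGR site, 21.2% a CRE half-site and 14.5% an ETS site. The windows of 5 genes are shown, EGR1 and SRF with their CArG boxes beside EGR4, IER2 and IER5, which changed in 92-1 and whose windows held none, 5′ to 3′ in the direction of transcription, with the matches in capitals. That of EGR1 is chr5:138465229-138465478 on the plus strand, EGR4 chr2:73293549-73293798 on the minus strand, IER2 chr19:13150161-13150410 on the plus strand, IER5 chr1:181088450-181088699 on the plus strand and the first listed start of SRF chr6:43171019-43171268 on the plus strand.
EGR1: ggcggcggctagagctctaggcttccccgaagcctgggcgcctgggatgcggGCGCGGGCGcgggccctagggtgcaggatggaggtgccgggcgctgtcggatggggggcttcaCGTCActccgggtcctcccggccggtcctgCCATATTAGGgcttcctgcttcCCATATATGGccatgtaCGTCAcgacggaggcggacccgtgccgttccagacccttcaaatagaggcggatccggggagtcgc
EGR4: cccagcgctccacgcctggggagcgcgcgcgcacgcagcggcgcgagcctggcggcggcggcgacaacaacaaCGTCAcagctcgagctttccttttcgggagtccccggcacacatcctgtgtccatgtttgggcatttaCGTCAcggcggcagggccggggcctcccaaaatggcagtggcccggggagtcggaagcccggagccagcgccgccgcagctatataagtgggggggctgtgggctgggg
IER2: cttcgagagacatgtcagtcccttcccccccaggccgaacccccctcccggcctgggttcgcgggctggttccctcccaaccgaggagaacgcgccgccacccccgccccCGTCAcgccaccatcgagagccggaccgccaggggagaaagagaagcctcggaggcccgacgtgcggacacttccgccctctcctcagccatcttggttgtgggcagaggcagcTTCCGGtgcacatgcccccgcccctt
IER5: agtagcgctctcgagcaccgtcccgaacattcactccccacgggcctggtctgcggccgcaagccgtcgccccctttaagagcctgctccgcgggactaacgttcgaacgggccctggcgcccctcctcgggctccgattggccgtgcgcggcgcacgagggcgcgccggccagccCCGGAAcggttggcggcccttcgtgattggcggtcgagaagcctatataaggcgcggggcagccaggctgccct
SRF: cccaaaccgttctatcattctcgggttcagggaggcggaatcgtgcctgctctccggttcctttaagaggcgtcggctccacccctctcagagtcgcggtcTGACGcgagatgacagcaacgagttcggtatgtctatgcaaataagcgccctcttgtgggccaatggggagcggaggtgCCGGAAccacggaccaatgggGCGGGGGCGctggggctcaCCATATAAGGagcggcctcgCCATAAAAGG
The EGR1 window held 2 CArG boxes, 105 to 96 and 83 to 74 bases before the start, an EGR site at 198 to 190, and CRE half-sites at 135 to 131 and 66 to 62. The SRF window held 2 CArG boxes as well, at 30 to 21 and 10 to 1, beside an ETS site at 70 to 65, an EGR site at 49 to 41 and a CRE half-site at 149 to 145. At EGR2, the third listed start (chr10:62816367-62816616, minus strand) had 1 CArG box, at 71 to 62. The EGR4 window held 2 CRE half-sites, at 177 to 173 and 109 to 105. The IER2 window held a CRE half-site at 140 to 136 and an ETS site at 26 to 21, and the IER5 window an ETS site at 74 to 69. The NAB2 window (chr12:57088864-57089113, plus strand) held an EGR site at 62 to 54, and the first 2 NAB1 windows, which overlap, held 2 and 3 EGR sites. The windows share 2 of these, which overlap each other, so that NAB1 had 3 distinct EGR sites. These matches are descriptions of the letters only.

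Between 11394088 and 32317711 reads per library were counted in genes, with 1.30% to 9.55% of them mitochondrial. That share was higher with drug than with DMSO at 24 h in 92-1 with FHT-1015 (8.21% to 9.55% against 7.07% to 7.43%), in MP41 (3.56% to 5.96% against 1.30% to 3.42%) and with IDE196 (6.66% to 7.74% against 3.79% to 5.28%), without overlap, while the groups overlapped in MEL202 and at 4 h; its part in the results was not tested. One library stood apart: MEL202 treated for 4 h with FHT-1015, replicate 2, had a read in 17592 genes, against 20023 in the next lowest library. For members, the values described for FHT-1015 in MEL202 at 4 h and the calls over time are also given without it. The counts of gene lists and markers in MEL202 include it. The melanocytic markers PMEL (2803 to 10110 CPM, counts scaled to library size, in the DMSO libraries), TYRP1 (2473 to 10880 CPM), MLANA (322 to 913 CPM) and SOX10 (382 to 1596 CPM) were present in all lines. By contrast, S100B was at 0 in some DMSO libraries, and DCT ranged in them from 0.419 to 154.6 CPM. Summed leukocyte markers reached at most 4.57 CPM and endothelial markers 1.70 CPM, while summed epithelial markers reached 24.99 CPM in the IDE196 experiment (KRT5 up to 12.7 CPM) and fibroblast markers 43.1 CPM in MP41 DMSO. In bulk libraries fewer cells with a transcript and less of it per cell cannot be told apart.

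In DMSO the members spanned a wide range of levels. Per kilobase of exon at 4 h in 92-1, NAB2 stood at 29.4 CPM per kb, SRF at 27.2, IER5 at 19.5, IER2 at 12.6 and NAB1 at 7.59, followed by EGR1 at 3.90, IER3 at 2.20, EGR3 at 0.297, EGR4 at 0.0883 and EGR2 at 0.0606 CPM per kb (means of 3). The libraries of NAB2 and SRF, and those of EGR4 and EGR2, overlapped on this scale. EGR2 and EGR4 were close to the detection limit in 92-1 and MEL202, with at most 24 reads in any DMSO library of these lines, so their values there carry large counting error. A level per kb is understated for IER2, IER3 and NAB1, because reads in stretches that a gene on the other strand also covers were not counted. Over the 48 libraries this left out 65.1% of the IER2 reads, 38.8% of the IER3 reads and 23.02% of the NAB1 reads. In 92-1 DMSO at 4 h it left out 62.4 CPM of IER2 beside 38.8 CPM counted, so the place of IER2 in the order above depends on them.

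**Figure D1:**
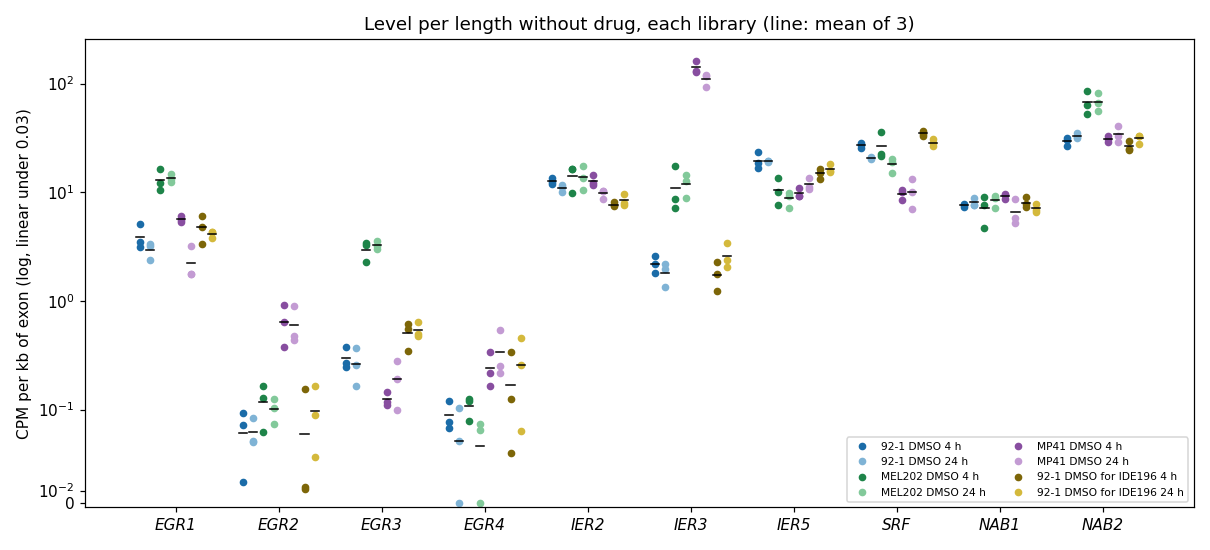
Level of each gene in the DMSO libraries of the 3 lines, in CPM per kilobase of exon on a log axis, with each library as a point. IER3 is highest in MP41, and EGR1, EGR3 and NAB2 are highest in MEL202.

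The DMSO level differed among the 3 lines for 7 of the 10 genes at 4 h and for 8 of 10 at 24 h, beside 63.2% and 68.7% of all genes tested (edgeR quasi-likelihood F-test, Benjamini-Hochberg adjusted p under 0.05). IER3, which encodes a stress-inducible regulator of survival, showed the largest gap. Its DMSO libraries at 4 h read 219, 175 and 179 CPM in MP41, 11.8, 9.67 and 23.5 CPM in MEL202, and 2.44, 3.55 and 2.95 CPM in 92-1. The 3 lines did not overlap, and MP41 was 65.4-fold above 92-1 (log2 difference 6.03, SE 0.35, adjusted p = 1.84e-15) and 12.7-fold above MEL202. These folds leave out reads in the stretch shared with the antisense gene IER3-AS1. Such reads averaged 117 CPM in MP41 and 4.37 CPM in 92-1, or 37.95% and 59.4% of the gene's reads. With them the gap between MP41 and 92-1 is smaller.

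EGR3 and EGR1 were highest in MEL202. EGR3 read 16.4, 15.7 and 11.01 CPM there at 4 h, 1.19, 1.29 and 1.84 CPM in 92-1, and 0.711, 0.538 and 0.565 CPM in MP41. MEL202 stood 10.2-fold above 92-1 (log2 difference 3.35, SE 0.37, adjusted p = 1.07e-08) and MP41 4.56 log2 units below MEL202 (a difference of -4.56, adjusted p = 6.12e-11). EGR1, with 51.0, 38.1 and 32.9 CPM in MEL202 against 10.8, 9.89 and 16.0 CPM in 92-1, was 3.41-fold higher in MEL202 (adjusted p = 9.22e-08). NAB2, a corepressor that EGR1 itself induces, was 2.34-fold higher in MEL202 than in 92-1 (adjusted p = 9.69e-07), whereas for its relative NAB1 the test among lines passed at neither time. EGR2 was 10.4-fold higher in MP41 than in 92-1 (log2 difference 3.38, SE 0.62, adjusted p = 2.99e-05), SRF lower by a log2 difference of -1.45 (SE 0.19, adjusted p = 1.02e-07), and IER5 lower in both MEL202 (-0.87, SE 0.20, adjusted p = 0.000646) and MP41 (-0.95, SE 0.20, adjusted p = 0.000158). For IER2 the test among lines passed at neither time.

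Both sets of untreated 92-1 cells can be set side by side, although set and experiment cannot be told apart. At 4 h, 3 of the 10 genes differed between them (46.1% of all genes): the IDE196 set had less IER2 (-0.69, SE 0.15, adjusted p = 0.000666), less IER5 (-0.36, SE 0.13, adjusted p = 0.023) and more SRF (0.39, SE 0.08, adjusted p = 0.000336). The IER2 gap lay in the reads counted here, which averaged 38.8 CPM in the FHT-1015 set and 23.7 CPM in the IDE196 set. Reads in the stretch shared with a gene on the other strand, left out of the counts, averaged 62.4 and 61.4 CPM. At 24 h, 2 differed (45.2% of all genes), EGR4 (2.41, SE 0.90, adjusted p = 0.0318) and SRF (0.50, SE 0.08, adjusted p = 2.27e-05), both higher in the IDE196 set. The EGR4 difference rests on 6 reads in the FHT-1015 set and 40 in the IDE196 set, summed over 3 libraries each. The count at 24 h was 1 without replicate 1 of the first set or replicate 4 of the IDE196 set. Epithelial markers were also higher in the IDE196 set, summing to 7.02 to 16.1 CPM against 0.681 to 1.78 CPM at 4 h (3 of 4 called, beside 23.3% of all genes) and 2.42 to 18.4 against 0.798 to 1.097 CPM at 24 h (4 of 4, beside 22.9%), as was the fibroblast marker COL1A1 (2.37, SE 0.27, and 1.41, SE 0.28). Of 7 tested melanocytic markers 2 were higher and 5 lower in the IDE196 set at 4 h and 2 higher and 4 lower at 24 h (22.8% and 22.4% of all genes were lower), DCT most (-1.69 and -1.80). Their part in these differences was not tested.

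Most calls with FHT-1015 came from 92-1. The estimated spread between replicates was also smaller there, with a biological coefficient of variation of 0.117, against 0.294 in MEL202 and 0.217 in MP41. Numbers of calls therefore do not compare the size of the response between lines. At 4 h in 92-1, 8 of the 9 genes that could be tested passed, 6 higher (EGR1, EGR3, EGR4, IER2, SRF and NAB1) and 2 lower (IER3 and IER5), where 29.5% of all genes did. At 24 h 7 of 9 passed, beside 60.6% of all genes. In the fits of 12 libraries, 1 fit per experiment, EGR2 had too few reads for a test in 92-1, and EGR4 in MEL202. The median log2 fold change of the tested members was 0.485 at 4 h and 0.72 at 24 h, beside 0.01 and -0.001 for all genes.

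In MEL202 at 4 h none of 9 tested genes passed, where 0.679% of all genes did; 3 had an unadjusted p under 0.05 (EGR1, IER3 and IER5) and DESeq2 called 2, EGR1 and IER5. Without the library with few genes 1 passed, IER3. At 24 h EGR3 and IER5 passed, 2 of 9 beside 18.8% of all genes. In MP41 none of 10 passed at 4 h, where 0.225% of all genes did; EGR1 and IER3 had an unadjusted p under 0.05 and DESeq2 called 0. At 24 h 3 of 10 passed in MP41, EGR1 and IER5 lower and NAB1 higher, beside 36.1% of all genes. The count in MEL202 at 24 h was 4 without DMSO replicate 1 of the 4 h set, and 1 without DMSO replicate 1 or 3 or any of the 3 FHT-1015 libraries of 24 h; in MP41 it was 5 without DMSO replicate 3 of 24 h.

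With IDE196 every call in 92-1 was a decrease. At 4 h 8 of 9 tested genes fell, all but IER5, where 16.2% of all genes changed and 9.3% fell. At 24 h 8 of 9 fell, all but NAB1, where 58.1% changed and 29.4% fell. The median log2 fold change of the members was -1.26 at 4 h and -1.68 at 24 h, beside 0.01 and 0.03 for all genes; it was -1.26 at 4 h also with EGR4, which had no read there, taken at its bound. The count at 4 h was 5 without IDE196 replicate 3.

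Separate groups of 3 were common in these data. With FHT-1015 the drug and DMSO libraries did not overlap for 8 and 7 of the 10 genes at 4 h and 24 h in 92-1 (43.7% and 65% of all genes tested), 2 and 7 in MEL202 (9.45% and 52%), and 5 and 4 in MP41 (20.9% and 42.3%). With IDE196 they did not overlap for 7 and 8 genes (30.1% and 65%).

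**Figure D2:**
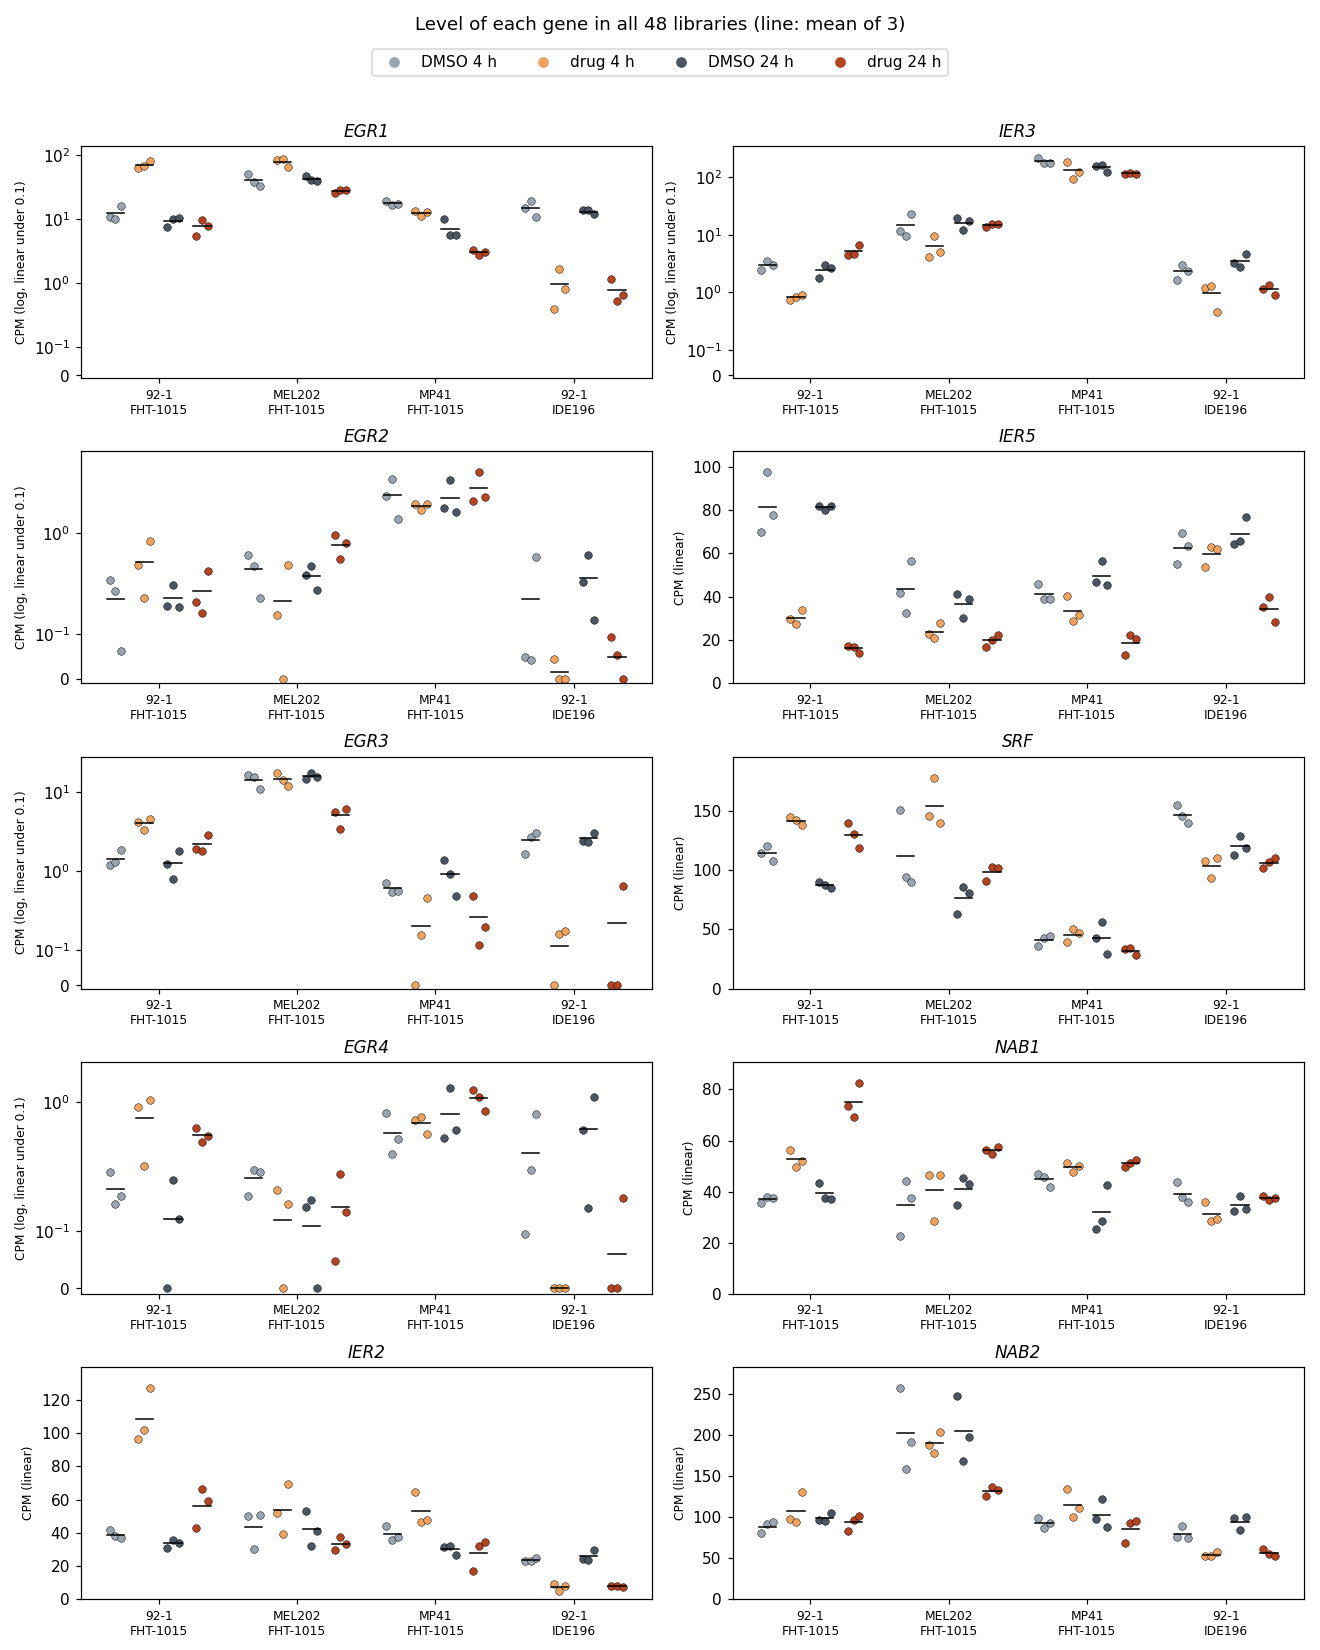
CPM of each gene in all 48 libraries, by experiment, with a line at each mean of 3; IER2, IER5, SRF, NAB1 and NAB2 have a linear axis from 0 and the others a log axis that is linear under 0.1. EGR1 with FHT-1015 at 4 h in 92-1 stands at 63.8 to 81.97 CPM, above its DMSO libraries, while with IDE196 it stands at 0.397 to 1.67 CPM.

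**Figure D3:**
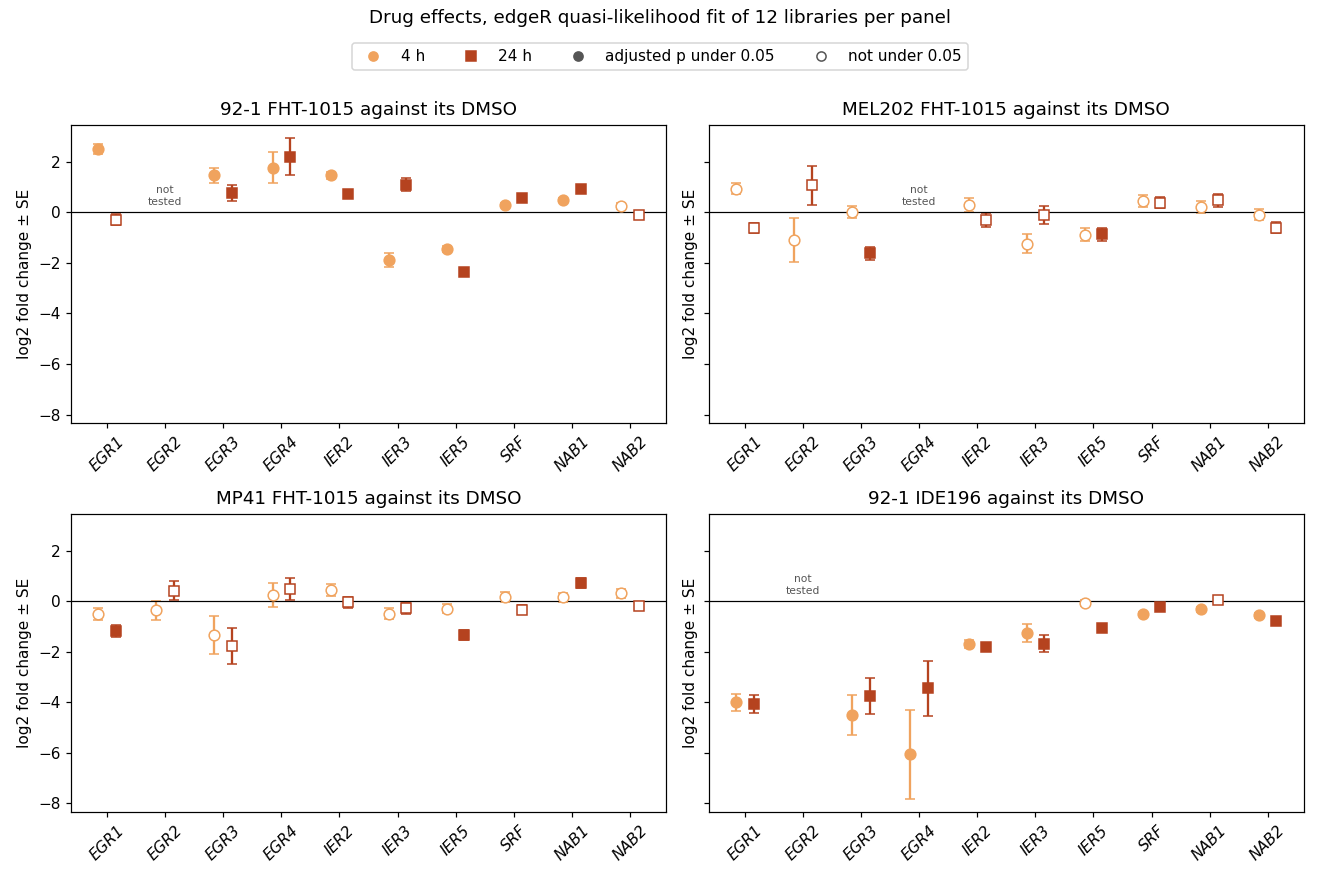
Log2 fold change of each gene against its own DMSO with its standard error, for each drug, line and time; filled points passed the test (edgeR, adjusted p under 0.05). EGR4 had no read with IDE196 at 4 h, so its point there depends on the fit and is no measured size. Every filled IDE196 point lies below 0, whereas filled FHT-1015 points lie on both sides.

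EGR1, the best-studied factor of the family and a direct readout of ERK signalling in many cells, rose with FHT-1015 in 92-1 at 4 h. It read 63.8, 66.5 and 81.97 CPM against 10.8, 9.89 and 16.0 CPM in DMSO, groups that did not overlap. That is 5.70-fold (log2 fold change 2.51, SE 0.20, edgeR adjusted p = 1.83e-07).

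No rise was called at 24 h in 92-1, when EGR1 read 5.50, 9.77 and 7.84 CPM against 7.54, 10 and 10.4 CPM, overlapping groups (-0.30, SE 0.22, adjusted p = 0.259). The effect at 24 h was 2.81 log2 units below that at 4 h (a difference of -2.81, SE 0.30, adjusted p = 2.1e-06). In 92-1, 5 of 9 tested members changed their effect between the times, beside 45.5% of all genes.

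In MEL202 EGR1 read 84.8, 86.4 and 64.4 CPM with FHT-1015 at 4 h against 51.0, 38.1 and 32.9 CPM, with no overlap and 1.91-fold (0.94, SE 0.21), but the adjusted p was 0.0718. It was 0.035 without DMSO replicate 1 (log2 1.15), 0.00143 by DESeq2, and 0.122 without FHT-1015 replicate 2, the library with few genes (log2 0.84).

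At 24 h EGR1 in MEL202 read 25.2, 28.1 and 28.0 CPM with FHT-1015, all below the 46.4, 41.3 and 38.7 CPM of DMSO (-0.62, SE 0.21, adjusted p = 0.0559). It passed by DESeq2 (adjusted p = 0.0261), from the sum of both strands (0.0475), in the fit of only the 6 samples compared (0.00336) and in the fits without 3 other libraries: DMSO replicates 1 and 3 of 4 h (adjusted p = 0.0241 and 0.0387) and FHT-1015 replicate 2 of 4 h (0.0372). The change of the effect from 4 h to 24 h did pass (-1.55, SE 0.30, adjusted p = 0.00696). EGR1 and EGR3 were the 2 of 9 tested members with such a change in MEL202, beside 6.89% of all genes. Without the library with few genes it was -1.46 for EGR1 (adjusted p = 0.00866), and IER3 passed as well (1.63, SE 0.47, adjusted p = 0.046, against 1.14, SE 0.53, adjusted p = 0.242 with it).

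In MP41 EGR1 stood below DMSO at both times. It read 13.3, 11.2 and 12.8 CPM at 4 h with FHT-1015, below all of the DMSO values of 18.9, 16.6 and 17.4 CPM, without passing (-0.51, SE 0.22, adjusted p = 0.80). At 24 h it fell, from 10.1, 5.56 and 5.58 CPM to 3.24, 2.76 and 3.02 CPM, groups that did not overlap (-1.18, SE 0.24, adjusted p = 0.00184). The DMSO level of EGR1 in MP41 was itself lower at 24 h than at 4 h (-1.39, SE 0.23, adjusted p = 0.0146), 1 of 10 members beside 2.59% of all genes. That count was 0 without any 1 of the 3 DMSO libraries of 4 h and 2 without DMSO replicate 3 of 24 h. NAB1 in MP41 DMSO was lower at 24 h with an unadjusted p under 0.05 (-0.55, SE 0.18, edgeR adjusted p = 0.0955). No member changed in DMSO over time in 92-1, MEL202 or the IDE196 set (0.344%, 0% and 0.266% of all genes); 1, 1 and 2 members had an unadjusted p under 0.05 there (SRF in each, and NAB2 in the last), and DESeq2 called 1, 0 and 0.

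The FHT-1015 effect on EGR1 differed among the lines at 4 h (F-test over 36 libraries, adjusted p = 1.15e-06). With EGR3 (adjusted p = 0.0441) it made 2 of 10 members whose early effect differed, where 1.38% of all genes did. That count was 1 in 20 of the 36 fits that each left out 1 library and 4 without MEL202 DMSO replicate 2 of 4 h.

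IDE196 lowered EGR1 at both times. At 4 h it read 0.397, 1.67 and 0.805 CPM against 15.0, 19.1 and 10.6 CPM in DMSO, 0.0625 times the DMSO level (-4.00, SE 0.33, adjusted p = 3.01e-07). By 24 h it read 1.16, 0.525 and 0.654 CPM against 13.7, 13.7 and 11.8 CPM (-4.07, SE 0.34, adjusted p = 2.14e-08). Neither pair of groups overlapped. With IDE196, 1 of 9 tested members, IER5, changed its effect between the times, beside 30.7% of all genes.

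EGR3, induced with EGR1 in many cell types and encoded on chr8:22687659-22693302, also rose in 92-1. With FHT-1015 at 4 h it read 4.16, 3.37 and 4.58 CPM against 1.19, 1.29 and 1.84 CPM, without overlap, and rose 2.75-fold (1.46, SE 0.29, adjusted p = 0.00141). After 24 h the libraries read 1.88, 1.79 and 2.87 CPM against 1.24, 0.798 and 1.78 CPM, just without overlap (0.77, SE 0.32, adjusted p = 0.0455). That later call was lost in 8 of the 12 fits without 1 library (all but those without DMSO replicate 3 of 4 h or 24 h or FHT-1015 replicate 1 or 2 of 24 h), with log2 values of 0.52 to 0.76 and adjusted p of 0.0516 to 0.222, by the fit of only the 6 samples compared (adjusted p = 0.0816) and without a filter on low counts (0.75, adjusted p = 0.0665).

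In MEL202, where EGR3 is most abundant, FHT-1015 lowered it late. At 4 h the groups overlapped, at 17.7, 14.2 and 11.98 CPM against 16.4, 15.7 and 11.01 CPM (0.01, SE 0.25, adjusted p = 0.999; also 0.01, adjusted p = 0.998, without the library with few genes). The values at 24 h were 5.63, 3.44 and 6.19 CPM against 14.7, 17.3 and 15.6 CPM, with no overlap, and fell to 0.325 times the DMSO level (-1.62, SE 0.26, adjusted p = 0.000776). The effect at 24 h was lower than that at 4 h (-1.63, SE 0.36, adjusted p = 0.0157; 0.0156 without the library with few genes), a call lost without FHT-1015 replicate 2 of 24 h (-1.42, adjusted p = 0.0505).

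EGR3 was scarce in MP41, with 36 and 57 reads over the 3 DMSO libraries of 4 h and 24 h against 16 and 17 with FHT-1015. The fitted differences were -1.34 (SE 0.74, adjusted p = 0.989) and -1.78 (SE 0.71, adjusted p = 0.0662). The later one passed by DESeq2 (adjusted p = 0.039) and without DMSO replicate 3 of 24 h, FHT-1015 replicate 1 of 4 h or FHT-1015 replicate 1 of 24 h (adjusted p = 0.0256, 0.0408 and 0.0383), but with the reads of both strands added it was -0.93 (adjusted p = 0.224). The effect on EGR3 differed among the lines at 24 h (adjusted p = 0.0016).

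IDE196 left few EGR3 reads. At 4 h it had 0, 3 and 3 reads against 161 over the 3 DMSO libraries, and at 24 h 0, 0 and 11 reads against 166. Scaled to depth these are ratios of 24.0-fold lower (95% counting interval 10.8 to 66.4) and 13.7-fold lower (7.43 to 27.9). The fits gave -4.49 (SE 0.79, adjusted p = 0.00064) and -3.73 (SE 0.71, adjusted p = 0.000229). These intervals cover counting error only. All reads with IDE196 at 24 h were in replicate 3, so the later size rests on 1 drug library.

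EGR2, known for its part in myelination by Schwann cells, had 808 reads over the 48 libraries, fewer than all other members but EGR4, which had 388. In 92-1 its DMSO libraries held 6, 5 and 1 reads at 4 h and 4, 5 and 3 reads at 24 h, against 11, 5 and 13 and then 3, 2 and 7 reads with FHT-1015. The ratios of FHT-1015 to DMSO were 2.10 and 1.24, and EGR2 was not tested there. With IDE196 it had 1, 0 and 0 reads at 4 h against 1, 1 and 12 in DMSO, so that DMSO replicate 6 held nearly all of the reads there and no fold is given. Its reads at 24 h were 2, 1 and 0 against 7, 12 and 3 (6.63-fold lower, 95% counting interval 1.99 to 34.6).

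MP41 held most of the EGR2 transcripts, with DMSO libraries at 2.33, 3.37 and 1.39 CPM at 4 h and 1.75, 3.30 and 1.604 CPM at 24 h. With FHT-1015 they read 1.92, 1.68 and 1.93 CPM and 2.05, 4.00 and 2.28 CPM, overlapping DMSO at both times (-0.37, adjusted p = 1, and 0.42, adjusted p = 0.40). In MEL202 the reads were 3, 0 and 9 against 13, 8 and 4 at 4 h (-1.09, SE 0.87, edgeR adjusted p = 0.846). The 0 was in FHT-1015 replicate 2, the library with few genes, and the difference was -0.49 without it (adjusted p = 0.889). At 24 h the reads were 20, 14 and 17 against 10, 8 and 9. These groups did not overlap, but the difference of 1.06 (SE 0.78) did not pass (adjusted p = 0.401).

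EGR4, best known from neurons, had 5, 3 and 3 reads in DMSO of 92-1 at 4 h against 21, 7 and 16 with FHT-1015, and 0, 4 and 2 against 9, 6 and 9 at 24 h. Both pairs of groups were separate. The rises were 1.76 (SE 0.61, adjusted p = 0.0397) and 2.19 (SE 0.73, adjusted p = 0.0171). The early one was lost in 8 of 12 fits without 1 library (each DMSO library of 4 h, DMSO replicate 3 of 24 h, and FHT-1015 replicates 1 and 3 of 4 h and 2 and 3 of 24 h; log2 1.498 to 2.03, adjusted p 0.0511 to 0.131) and by DESeq2 (0.0548), the later one without DMSO replicate 1 of 24 h (log2 1.501, adjusted p = 0.0732).

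With IDE196 EGR4 had no read in any library at 4 h, against 2, 7 and 17 reads in DMSO, which is at least 2.58-fold lower with a floor of 3 reads per library (adjusted p = 0.0268), and at least 1.26-fold without DMSO replicate 6, which held 17 of the reads. At 24 h it had 0, 0 and 3 reads against 13, 3 and 24, or 12.1-fold lower (95% counting interval 3.84 to 60.9; fitted -3.45, SE 1.09, adjusted p = 0.0132). That ratio was 7.40 without DMSO replicate 6, and all 3 of the IDE196 reads were in replicate 3. The early call was lost without DMSO replicate 6 or any 1 of the IDE196 libraries (adjusted p 0.0632 to 0.108) and the later one without DMSO replicate 6 or IDE196 replicate 1 or 2 (fitted -2.91 to -2.76, adjusted p 0.0577 to 0.0768). In MP41 EGR4 had 16, 8 and 10 reads in DMSO and 9, 15 and 16 with FHT-1015 at 4 h, overlapping groups, and the tests passed at neither time (0.23, adjusted p = 1, and 0.50, adjusted p = 0.395).

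IER2, a small nuclear protein induced by growth factors, rose with FHT-1015 in 92-1 at both times. At 4 h it read 96.7, 102 and 127 CPM against 41.7, 38.2 and 36.6 CPM in DMSO, a rise of 2.75-fold (1.46, SE 0.14, adjusted p = 1.9e-06). By 24 h it read 43.0, 66.6 and 59.1 CPM against 30.7, 35.8 and 34.1 CPM, a rise of 1.65-fold (0.72, SE 0.15, adjusted p = 0.000507). Neither pair overlapped, and the later effect was smaller than the early one (-0.74, SE 0.20, adjusted p = 0.00795).

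In the other lines IER2 gave no call. In MEL202 the groups overlapped at 4 h, at 51.7, 39 and 69.6 CPM against 49.98, 30.4 and 50.4 CPM (0.27, adjusted p = 0.903; 0.44, adjusted p = 0.679, without the library with few genes, FHT-1015 replicate 2). In MP41 64.3, 46.8 and 47.9 CPM against 43.9, 35.8 and 37.4 CPM did not overlap at 4 h, apart as they were by a difference that did not pass (0.44, SE 0.22, adjusted p = 0.917). At 24 h the groups overlapped in both lines, with differences of -0.32 in MEL202 (adjusted p = 0.48) and -0.05 in MP41 (adjusted p = 0.876).

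IDE196 lowered IER2 at both times. It read 9.26, 5.11 and 7.65 CPM at 4 h against 23.2, 22.97 and 24.8 CPM, 0.311 times the DMSO level (-1.69, SE 0.16, adjusted p = 1.21e-06). After 24 h the libraries read 7.68, 7.82 and 7.25 CPM against 24.3, 23.6 and 29.6 CPM, 0.284 times (-1.82, SE 0.16, adjusted p = 3.92e-08). Adding back the reads shared with the antisense gene gave 1.51 and 0.62 for FHT-1015 in 92-1.

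IER3 moved in opposite directions at the times studied in 92-1. With FHT-1015 at 4 h it read 0.737, 0.819 and 0.904 CPM against 2.44, 3.55 and 2.95 CPM, a fall to 0.27 times the DMSO level (-1.89, SE 0.28, adjusted p = 0.000128). The values at 24 h were 4.46, 4.64 and 6.76 CPM against 1.81, 2.95 and 2.64 CPM, a rise of 2.13-fold (1.09, SE 0.25, adjusted p = 0.00131). Neither pair overlapped, and the effects differed by 2.98 log2 units (SE 0.38, adjusted p = 1.36e-05).

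The early fall was smaller when the whole gene is read. IER3 (chr6:30743199-30744554, minus strand) shares 359 exon bases with the antisense gene IER3-AS1, and reads there were left out of the counts above. In 92-1 DMSO at 4 h these shared reads came to 4.37 ± 1.35 CPM (SD, n = 3) beside 2.98 ± 0.55 of the gene's own; with FHT-1015 the shared reads were 3.97 ± 0.49 and the gene's own 0.82 ± 0.08. The shared part was 59.4% of the reads in DMSO and 82.9% with FHT-1015. From the sum of both, the change at 4 h was -0.65 (SE 0.16, adjusted p = 0.00763) that at 24 h 1.47 (adjusted p = 1.18e-06), and the difference between the times 2.12 (SE 0.23, adjusted p = 3.08e-06) in place of 2.98. The library preparation keeps no strand, so reads of IER3 and IER3-AS1 cannot be told apart in the shared stretch.

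**Figure D4:**
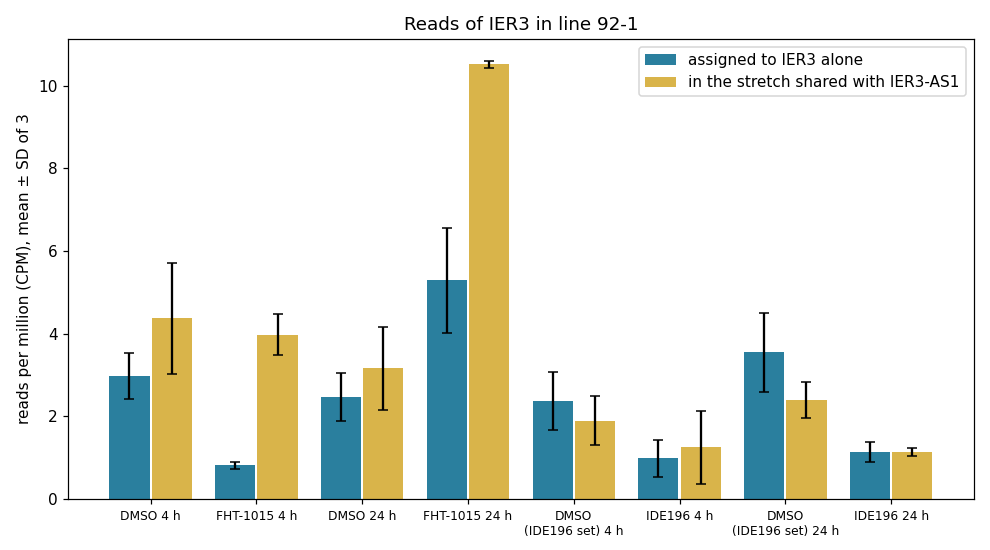
Reads of IER3 in 92-1 outside and inside the stretch shared with IER3-AS1, in CPM, as mean and SD of the 3 libraries of each group. In 92-1 with FHT-1015 at 4 h the reads outside average 0.82 CPM against 2.98 in DMSO, while the error bars of the shared reads overlap.

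In MEL202 IER3 read 4.21, 9.77 and 5.00 CPM with FHT-1015 at 4 h against 11.8, 9.67 and 23.5 CPM, overlapping through 1 library of each group (-1.25, SE 0.38, adjusted p = 0.222). Without that FHT-1015 library, replicate 2, which is the one with few genes, the difference was -1.74 (adjusted p = 0.0484), and without a filter on low counts it was -1.27 (adjusted p = 0.00884). At 24 h the groups overlapped, at 13.9, 15.5 and 15.3 CPM against 19.4, 12.03 and 17.3 CPM (-0.11, SE 0.37, adjusted p = 0.882). In MP41, where IER3 is abundant, it read 189, 93.9 and 124 CPM against 219, 175 and 179 CPM at 4 h, overlapping groups (-0.49, SE 0.21, adjusted p = 0.782). At 24 h 115, 122 and 117 CPM lay below 160, 164 and 126 CPM without passing (-0.28, SE 0.21, adjusted p = 0.319). The late effect differed among the lines (adjusted p = 0.0375).

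IDE196 lowered IER3 at both times. It read 1.19, 1.29 and 0.46 CPM against 1.67, 3.06 and 2.38 CPM at 4 h (-1.26, SE 0.36, adjusted p = 0.0223), and 1.16, 1.37 and 0.892 CPM against 3.26, 2.77 and 4.62 CPM at 24 h (-1.68, SE 0.35, adjusted p = 0.000506). The groups were separate at both times. The early call was lost without DMSO replicate 5 (-1.02, adjusted p = 0.111) or IDE196 replicate 3 (-0.94, adjusted p = 0.0904), and in the fit of only the 6 samples compared (-1.26, adjusted p = 0.0579).

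IER5, which binds heat shock factor 1 and phosphatase 2A, was the member called lower with FHT-1015 at 24 h in all 3 lines. In 92-1 it read 29.6, 27.4 and 33.9 CPM at 4 h against 69.8, 97.4 and 77.7 CPM (-1.46, SE 0.12, adjusted p = 3.73e-07). At 24 h it read 17.2, 16.9 and 14.2 CPM against 82.01, 79.9 and 81.7 CPM, 0.195 times the DMSO level (-2.36, SE 0.13, adjusted p = 6.11e-10). The groups were far apart at both times, and the later effect was larger (-0.91, SE 0.18, adjusted p = 0.000605).

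In MEL202 IER5 read 22.7, 21.0 and 28.0 CPM at 4 h against 41.7, 32.2 and 56.6 CPM, separate groups that did not pass (-0.88, SE 0.24, adjusted p = 0.159; DESeq2 adjusted p = 0.0333; edgeR -0.82, adjusted p = 0.263, without FHT-1015 replicate 2). After 24 h the libraries read 16.8, 20.2 and 22.3 CPM against 41.1, 30.2 and 39 CPM and fell (-0.88, SE 0.24, adjusted p = 0.0216). That call was lost without DMSO replicate 1 or 3 or any 1 of the FHT-1015 libraries of 24 h (log2 -0.97 to -0.77, adjusted p 0.0504 to 0.11).

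In MP41 the IER5 groups overlapped at 4 h, at 40.2, 28.96 and 31.6 CPM against 45.9, 38.8 and 38.9 CPM (-0.30, SE 0.19, adjusted p = 1). By 24 h it fell to 13.1, 22.3 and 20.5 CPM from 46.6, 56.5 and 45.3 CPM, 0.394 times the DMSO level (-1.34, SE 0.20, adjusted p = 0.00016). The change of effect with time was -1.05 (SE 0.28, adjusted p = 0.0178), 1 of 10 members beside 18.6% of all genes, and was lost without DMSO replicate 2 or 3 of 4 h (-1.01 each, adjusted p = 0.0507 and 0.0521). Without DMSO replicate 3 of 24 h 5 members passed, EGR1 (-0.88, adjusted p = 0.0331), SRF (-0.76, adjusted p = 0.0146), NAB1 (0.79, adjusted p = 0.00272) and NAB2 (-0.66, adjusted p = 0.0365) beside IER5. The late effect differed among the lines (adjusted p = 0.0017), being deepest in 92-1.

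With IDE196 at 4 h IER5 read 53.7, 63.1 and 62.2 CPM against 55.1, 69.2 and 63.2 CPM, overlapping groups (-0.08, SE 0.12, adjusted p = 0.756), at a time when EGR1 and IER2 had already fallen. The values at 24 h were 35.1, 39.6 and 28.4 CPM against 64.5, 65.7 and 76.8 CPM, 0.482 times the DMSO level (-1.05, SE 0.12, adjusted p = 1.37e-06). The effect changed between the times (-0.98, SE 0.17, adjusted p = 0.000382).

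SRF, the factor whose sites lie upstream of EGR1 and of its own gene in the windows shown above, moved by small amounts. In 92-1 with FHT-1015 it read 145, 142 and 138 CPM against 114, 121 and 108 CPM at 4 h, a rise of 1.22-fold (0.29, SE 0.08, adjusted p = 0.0113). At 24 h it read 139, 131 and 119 CPM against 89.6, 87.4 and 84.9 CPM, a rise of 1.46-fold (0.55, SE 0.08, adjusted p = 2.1e-05). Neither pair overlapped. The early call was lost without DMSO replicate 3 (0.24, adjusted p = 0.0669).

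MEL202 and MP41 gave no SRF call. MEL202 read 145, 178 and 139 CPM against 151, 94.5 and 89.7 CPM at 4 h, with overlap through DMSO replicate 1 (0.45, SE 0.23, adjusted p = 0.637; 0.31, adjusted p = 0.757, without FHT-1015 replicate 2). At 24 h 90.3, 102 and 102 CPM stood above 62.6, 85.7 and 80.6 CPM (0.38, SE 0.23, adjusted p = 0.292). In MP41 the 24 h values of 33.7, 34.5 and 28.0 CPM lay among the DMSO values of 42.3, 56.1 and 29.4 CPM (-0.34, SE 0.19, adjusted p = 0.193), and without DMSO replicate 3 the difference was -0.59 (adjusted p = 0.00705). The effect at 24 h differed among the lines (adjusted p = 0.0193), making 4 of 10 members (EGR3, IER3, IER5 and SRF) beside 12% of all genes, and 2 without MP41 DMSO replicate 2 of 24 h.

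With IDE196 SRF fell at 4 h to 108, 92.9 and 110 CPM from 155, 146 and 140 CPM (-0.51, SE 0.09, adjusted p = 0.000446). After 24 h the libraries read 101, 107 and 110 CPM against 113, 129 and 119 CPM (-0.23, SE 0.09, adjusted p = 0.0309). The groups were separate at both times. The later call was lost without DMSO replicate 5 (adjusted p = 0.122) or IDE196 replicate 1 (0.101) or 2 (0.0608), at log2 values of -0.24 to -0.19, and without a filter on low counts (-0.23, adjusted p = 0.0936).

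NAB1, the constitutive corepressor of the EGR proteins, rose with FHT-1015 in 92-1, from 35.6, 37.99 and 37.7 CPM to 56.4, 49.6 and 52.1 CPM at 4 h (0.48, SE 0.09, adjusted p = 0.000847). The values at 24 h were 73.4, 69.2 and 82.5 CPM against 43.5, 37.6 and 37.3 CPM, 1.88-fold (0.91, SE 0.09, adjusted p = 4.73e-07). The groups were separate, and the later effect was larger (0.42, SE 0.13, adjusted p = 0.014), a call lost without a filter on low counts (0.39, adjusted p = 0.0785).

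In MP41 NAB1 stood above DMSO at 24 h, at 49.5, 51.3 and 52.3 CPM against 25.3, 28.5 and 42.7 CPM (0.72, SE 0.18, adjusted p = 0.00844), a call lost in the fit of only these 6 libraries (adjusted p = 0.0765). Its mean with FHT-1015 was 49.7 CPM at 4 h and 51.0 CPM at 24 h, whereas the DMSO mean was 44.9 CPM at 4 h and 32.2 CPM at 24 h. In MEL202 at 24 h all values with FHT-1015, 56.4, 54.8 and 57.4 CPM, stood above the 34.9, 45.3 and 43.1 CPM of DMSO without passing (0.47, SE 0.25, adjusted p = 0.214; 0.0145 in the fit of these 6 libraries). With IDE196 at 4 h NAB1 read 35.98, 28.7 and 29.4 CPM against 43.8, 37.9 and 35.9 CPM, overlapping groups (-0.33, SE 0.11, adjusted p = 0.0499). That call was lost in 10 of 12 fits without 1 library, all but those without DMSO replicate 6 or IDE196 replicate 1 of 4 h (log2 -0.35 to -0.25, adjusted p 0.0521 to 0.179), and with RLE size factors (adjusted p = 0.0525), without a filter on low counts (0.0535) and with only the 6 samples compared (0.108). At 24 h the groups overlapped (0.06, adjusted p = 0.646).

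NAB2, which EGR1 induces and which then restrains it, was called with FHT-1015 in no line. With FHT-1015 in 92-1 at 4 h it read 97.8, 93.6 and 130 CPM against 80.2, 91.1 and 94.3 CPM, overlapping groups (0.25, SE 0.12, adjusted p = 0.131; 0.0398 with a replicate block), when EGR1 had risen 5.70-fold. At 24 h the groups overlapped as well (-0.11, SE 0.12, adjusted p = 0.463). In MEL202 at 24 h it read 126, 137 and 133 CPM, below all of the 247, 169 and 198 CPM of DMSO, without passing (-0.62, SE 0.22, adjusted p = 0.0655). It passed by DESeq2 (adjusted p = 0.0324), in the fit of only the 6 samples compared (0.01) and without DMSO replicate 1 or 2 of 4 h or replicate 2 of 24 h (0.0313, 0.0399 and 0.049).

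With IDE196 NAB2 fell, as EGR1 did. It read 52.3, 52.1 and 57.8 CPM against 75.2, 89.2 and 74.1 CPM at 4 h (-0.56, SE 0.10, adjusted p = 0.000727). By 24 h it read 60.7, 55.5 and 52.4 CPM against 99.3, 84.2 and 99.7 CPM, 0.576 times the DMSO level (-0.80, SE 0.10, adjusted p = 2.89e-06). The groups were separate at both times. In MP41 FHT-1015 gave overlapping groups at 24 h (-0.20, SE 0.16, adjusted p = 0.373) and separate ones at 4 h that did not pass (0.31, SE 0.16, adjusted p = 0.977).

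The effects of FHT-1015 and IDE196 in 92-1, each against its own DMSO, were compared directly in a fit of 24 libraries. The effect differed for 9 of the 10 genes at 4 h and at 24 h, beside 24.6% and 33% of all genes. For EGR1 the FHT-1015 effect was 6.51 log2 units above the IDE196 effect at 4 h (SE 0.40, adjusted p = 2.99e-12) and 3.77 above it at 24 h (adjusted p = 1.03e-07). For EGR3 it was 5.95 (SE 0.82) and 4.51 (SE 0.78) above, sizes that rest on 6 and 11 reads with IDE196. For IER2 it was 3.14 and 2.54 above, while SRF (0.79 and 0.77), NAB1 (0.81 and 0.84) and NAB2 (0.81 and 0.69) differed by less than 1 log2 unit.

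IER5 was the member that stood lower with FHT-1015 than with IDE196, by -1.38 at 4 h (SE 0.18, adjusted p = 1.97e-06) and -1.31 at 24 h (SE 0.19, adjusted p = 3.41e-06). IER3 did not differ between the drugs at 4 h beyond the test (-0.63, SE 0.47, adjusted p = 0.376; 0.32 from the sum of both strands), and was lowered by both at that time. At 24 h its effects were opposite and differed by 2.77 (SE 0.43, adjusted p = 1.04e-05). EGR2 is among the 9 at 4 h (adjusted p = 0.0314), but with 1 read under IDE196 and 12 of the 14 DMSO reads in replicate 6 no size is given. That call was lost in 5 of 24 fits without 1 library (adjusted p 0.0659 to 0.416): those without replicate 3 of DMSO or FHT-1015, DMSO replicate 6, or IDE196 replicates 2 or 3, all of 4 h.

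Related gene lists were described by counts. Of 35 other immediate early genes, FHT-1015 raised 11 and lowered 8 in 92-1 at 4 h (median -0.01, beside 0.01 for all genes, of which 12.9% rose and 16.7% fell), with NR4A2, an orphan nuclear receptor, highest (3.19, SE 0.22) and ARC, a synaptic plasticity gene, lowest (-5.32, SE 1.00). At 24 h 13 rose and 9 fell (29.2% and 31.4% of all genes), from PTGS2, the inducible cyclooxygenase (5.00, SE 0.34), to the MAP kinase phosphatase DUSP2 (-2.67, SE 0.16). In MEL202 3 rose and 3 fell at 4 h (0.157% and 0.522% of all genes) and 7 and 4 at 24 h (8.69% and 10.1%), and in MP41 2 and 1 of 34 at 4 h (0.0708% and 0.154%) and 10 and 8 at 24 h (17.4% and 18.7%). IDE196 raised 7 and lowered 15 of 33 at 4 h (6.89% and 9.3% of all genes; median -0.21) and raised 10 and lowered 16 at 24 h (28.7% and 29.4%; median -0.45), with NR4A3 lowest at both times (-3.86 and -5.85). Genes of this list moved both ways with either drug.

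Partners and targets of SRF were counted in the same way. Of 6 tested partners, FHT-1015 raised 2 in 92-1 at 4 h (12.9% of all genes rose; the ternary complex factor ELK3 most, 0.62) and raised 3 and lowered 2 at 24 h (29.2% and 31.4% of all genes). It raised 1 at 24 h in MEL202 (8.69% of all genes) and 2 in MP41 (17.4%). At 4 h edgeR called 0 of 6 in each of these lines, with 0 and 1 at an unadjusted p under 0.05 and 0 called by DESeq2. MRTFA, the actin-regulated coactivator of SRF, led the rises with FHT-1015 at 24 h in 92-1 (1.11, SE 0.10), MEL202 (1.05, SE 0.27) and MP41 (0.96, SE 0.17). IDE196 lowered 2 partners at 4 h (9.3% of all genes fell; ELK3 most, -1.33), and at 24 h raised 2 (28.7% of all genes; FHL2, a coregulator of SRF, most, 2.01) and lowered 3 (29.4%; ELK3 most, -0.89).

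Of 14 tested actin cytoskeleton targets in 92-1, FHT-1015 lowered 5 at 4 h (16.7% of all genes fell; FLNA, filamin A, most, -0.85). At 24 h it raised 7 and lowered 3 (29.2% and 31.4% of all genes; TAGLN 3.08, FLNA -1.52), with medians of -0.23 and 0.41 at the times studied. In MEL202 edgeR called 0 of 13 at either time (median 0.35 at 24 h), with 2 at an unadjusted p under 0.05 at each time and 0 and 2 called by DESeq2. In MP41 it called 0 of 14 at 4 h (1 at an unadjusted p under 0.05, 0 by DESeq2), and 3 higher and 2 lower at 24 h (17.4% and 18.7% of all genes; TAGLN 1.20, FLNA -0.85). IDE196 raised 1 at 4 h (6.89% of all genes) and 9 at 24 h (28.7%), when ACTA2, smooth muscle actin, was highest (2.23, SE 0.19) and ACTB was the 1 that fell (-0.94, SE 0.10; 29.4% of all genes fell); SRF itself was lower at both times.

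Melanocytic markers were lower with FHT-1015. In 92-1 their sum was already lower at 4 h, at 15640 to 17820 against 20220 to 21380 CPM, with 4 of 7 tested markers called lower beside 16.7% of all genes (SOX10, a melanocyte lineage factor, most, -4.94, SE 0.15); in MEL202 and MP41 the sums overlapped at 4 h and 1 of 8 was called, SOX10 (-3.04 and -2.26; 0.522% and 0.154% of all genes fell). At 24 h the sum was 4851 to 5317 CPM with FHT-1015 at 24 h in 92-1 against 18980 to 23040 CPM, 2749 to 3187 against 7882 to 9604 CPM in MEL202, and 5381 to 5938 against 11680 to 12660 CPM in MP41. Fibroblast markers summed to 13.4 to 16.9 CPM with FHT-1015 at 24 h in 92-1 against 3.82 to 4.42 CPM, with 2 of 3 tested called higher and 1 lower (29.2% and 31.4% of all genes; PDGFRA 2.44, LUM -1.84), and to 6.15 to 6.87 against 1.86 to 3.51 CPM in MEL202. The leukocyte marker PTPRC fell in MEL202 (-3.20, SE 0.88) and the endothelial marker VWF in MP41 (-2.11, SE 0.68) at 24 h, both from low levels. With IDE196 at 24 h fibroblast markers summed to 12.9 to 18.9 CPM against 7.69 to 10.1 CPM (1 of 3 called, COL1A1, 0.80, SE 0.27), and 2 of 7 melanocytic markers rose (DCT most, 3.17) and 1 fell (TYR, -0.36), beside 28.7% and 29.4% of all genes. The part of these markers in the results for the 10 genes was not tested.

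Of 8 heat shock genes, FHT-1015 lowered 4 at 4 h and 6 at 24 h in 92-1 (median -0.52 and -0.99), where 16.7% and 31.4% of all genes fell. At 24 h it lowered 3 in MEL202 (10.1% of all genes), and in MP41 it lowered 1 and raised 1 (18.7% and 17.4%). IDE196 lowered 1 at 4 h and 6 at 24 h (9.3% and 29.4% of all genes).

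The genes most like a member were ranked by the root mean square difference of the 8 log2 fold changes (each drug, line and time) among 10223 genes with at least 5 CPM (10224 for EGR3). Nearest to EGR1 were NR4A3 (0.97), POU3F2 (1.00) and SPRY2 (1.08): with FHT-1015 at 4 h in 92-1 they changed by 1.82, 1.80 and 1.58, and with IDE196 at 24 h by -5.85, -3.19 and -3.76. They did not follow EGR1 throughout: NR4A3 was at 1.06 in MP41 at 4 h, where EGR1 was at -0.51, and SPRY2 at 0.72 and 0.35 with FHT-1015 at 24 h in 92-1 and MEL202, where EGR1 was at -0.30 and -0.62. Nearest to EGR3 was EGR1 (0.83), followed by NR4A1 (1.21). IER2 was nearest to ZIC5 (0.46), PDE4A (0.47) and ZFP36L1 (0.48), and NAB2 to DDX10 (0.14), TMEM126B (0.15) and ARGLU1 (0.16). These distances are descriptions over 8 comparisons, and small ones come with small changes, as for NAB2.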

How the data were processed

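The authors deposited unnormalised whole-number counts of reads for every gene, laid out as STAR writes them, with unstranded and stranded columns; the submitters' processing notes name hg38 and limma. The authors' annotation release and aligner version are not given in the sources used here. Genes were named and placed by unversioned Ensembl identifier from GENCODE 29 (58597 of 58870 matched), and upstream windows came from RefSeq GRCh38.p14. The unstranded column was used; it leaves out reads in stretches covered by a gene on the other strand, so the sum of both stranded columns was an alternative. The 92 spike-in controls, with 0 reads, were left out.

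Each experiment (a line, a drug and its DMSO, 12 libraries) was fitted with edgeR 4.0.16 in R 4.3.3 by the quasi-likelihood F-test with TMM scaling and filterByExpr (minimum count 10). Genes tested numbered 15685 for FHT-1015 in 92-1, 15913 in MEL202, 15543 in MP41 and 15437 for IDE196. Lines were compared in a fit of the 36 FHT-1015 and DMSO libraries and drugs in a fit of the 24 libraries of 92-1. Adjusted p-values are Benjamini-Hochberg over all genes tested, with calls at under 0.05; the SE was derived from the log2 fold change and its F statistic. CPM are on 1 TMM scale over the 48 libraries. Depth, given with the results, sets a floor of 3 reads. The p-values weigh a difference against the spread between replicate libraries. That spread was estimated over all libraries of a fit, so a call can also depend on libraries outside the groups compared.

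The named genes are the 10 members, of each list the called gene with the largest rise and the largest fall, and the 3 most alike genes of EGR1, EGR3, IER2 and NAB2. Members and lists were chosen with earlier results of these data known. One of the lists is not reported here. Alternatives were DESeq2 1.42.0 (also its likelihood ratio test, chosen after seeing the data), other size factors, no filter, only the samples compared, the stranded sum, a replicate block, and leaving out each library. The scripts were tested on simulated data. Replicate numbers were not taken to pair samples: deviations of same-numbered libraries correlated over 0.1 in 8 of 18 pairs (-0.42 to 0.61).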

Additional observations from a re-analysis of the deposited data

Results flagged for a closer look

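These results differed between times or lines by a test of the difference itself. In 92-1 the FHT-1015 effect at 24 h minus that at 4 h was -2.81 for EGR1, -0.74 for IER2, 2.98 for IER3 (2.12 from the sum of both strands), -0.91 for IER5 and 0.42 for NAB1 in log2 units, the last a call lost without a filter on low counts (0.39, adjusted p = 0.0785). In MEL202 it was -1.55 for EGR1 and -1.63 for EGR3, in MP41 -1.05 for IER5, and with IDE196 in 92-1 -0.98 for IER5. The EGR3 call in MEL202 was lost without FHT-1015 replicate 2 of 24 h (edgeR adjusted p = 0.0505). The IER5 call in MP41 was lost without DMSO replicate 2 or 3 of 4 h (edgeR adjusted p = 0.0507 and 0.0521). The FHT-1015 effect differed among the lines at 4 h for EGR1 (edgeR adjusted p = 1.15e-06) and EGR3 (0.0441), and at 24 h for EGR3 (0.0016), IER3 (0.0375), IER5 (0.0017) and SRF (0.0193). At 4 h only 1 member was called in 20 of the 36 fits that each left out 1 library.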

How the results depend on the processing

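Depth limits EGR2 and EGR4, with at most 24 reads in a DMSO library of 92-1 or MEL202, and EGR3 in MP41 and with IDE196, where some libraries had 0 reads. Counts of members called were within 1.5 times of those given, under DESeq2, other size factors, no filter, only the samples compared, the stranded sum and a replicate block, except as follows, and the cause was not tested. DESeq2 called 1 for 92-1 DMSO over time, 2 for MEL202 with FHT-1015 at 4 h and 4 at 24 h, and 4 for the early difference among lines. Without a filter these were 1 for 92-1 DMSO, 1 for MEL202 at 4 h, 4 for the early difference among lines and 4 for the DMSO sets of 92-1 at 24 h. Only the 6 samples compared gave 5 for MEL202 at 24 h and 5 for IDE196 at 4 h, where fewer samples were fitted. The stranded sum gave 2 for the IDE196 effect over time. With a replicate block 92-1 DMSO over time gave 1, IER5 in MEL202 over time was -0.008, NAB2 with FHT-1015 in 92-1 at 4 h passed (0.24, adjusted p = 0.0398), as did SRF (0.26, adjusted p = 0.0445) and NAB2 (-0.35, adjusted p = 0.0257) over time in 92-1, SRF also by DESeq2 (0.27, adjusted p = 0.0483). No paired analysis was possible for the IDE196 effect within a time because its arms share no replicate numbers; for the change over time a replicate block within arms, chosen after seeing the data, changed no member's call (IER5 -0.988), and same-numbered libraries of the times correlated over 0.1 in 1 of 6 pairs. Values that had not passed turned sign: with the stranded sum EGR3 in MEL202 at 4 h went from 0.009 to -0.033, EGR3 in MP41 over time from -0.44 to 0.496 and IER3 between the drugs at 4 h from -0.632 to 0.318, and IER5 in MEL202 over time turned to -0.006 without a filter.

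Leaving out 1 library at a time gave these ranges of counts: 0 to 1 for 92-1 DMSO over time and for MEL202 at 4 h, 1 to 4 for MEL202 at 24 h, 1 to 3 for MEL202 over time, 3 to 5 for MP41 at 24 h, 0 to 5 for MP41 over time, 0 to 2 for MP41 DMSO, 5 to 7 for IDE196 at 4 h, 1 to 2 for IDE196 over time, 1 to 4 and 2 to 6 for the differences among lines at 4 h and 24 h, and 1 to 3 for the DMSO sets at 24 h. Values that turned sign in some such fit ranged, for the change over time, from -0.251 to 1.404 for EGR4 in 92-1, -0.254 to 0.195 for IER5 and -0.374 to 0.069 for SRF in MEL202, -1.144 to 0.827 for EGR3 and -0.08 to 0.684 for EGR4 in MP41, and -0.511 to 0.607 for EGR1, -4.282 to 1.405 for EGR3, -0.64 to 3.286 for EGR4 and -0.334 to 0.081 for IER2 with IDE196. At 4 h they ranged from -0.141 to 0.153 for EGR3, -0.01 to 0.397 for NAB1 and -0.272 to 0.115 for NAB2 in MEL202, and -0.166 to 0.009 for IER5 with IDE196. At 24 h they ranged from -0.293 to 0.038 for IER3 in MEL202 and -0.224 to 0.191 for IER2 in MP41. The values of -4.282 for EGR3 and -0.64 for EGR4 came without IDE196 replicate 3 of 24 h, which held all of their reads in that group. Both depend on the fit (SE 2058 for EGR4) and are no measured sizes.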
